A study of Mus musculus with 48 samples.

Results

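The Bcl2 family decides at the mitochondrion whether a T cell lives or dies, and 9 of its genes were followed here in chromatin accessibility data from tumour-infiltrating CD8 T cells: the survival genes Bcl2, Bcl2l1 and Mcl1, the BH3-only genes Bcl2l11, Bbc3, Pmaip1 and Bid, and the effector genes Bax and Bak1. A peak was counted to a gene when it overlapped that protein-coding gene's body or, where it overlapped no gene, when that gene was the nearest within 100 kb, and a peak over several genes went to the one with a boundary nearest its middle. This gave 79 peaks of the 53868 in the table, of which 44 overlapped a gene body and 35 lay near one. Bcl2 held 23 of them, Pmaip1 19, Bcl2l11 13, Bcl2l1 11, Mcl1 5, Bbc3 and Bid 3 each, and Bax and Bak1 1 each.

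The survival proteins Bcl2, Bcl-xL (from Bcl2l1) and Mcl1 hold the killers in check by binding them. The BH3-only proteins Bim (Bcl2l11), Puma (Bbc3), Noxa (Pmaip1) and Bid are raised or activated by cytokine loss, DNA damage or death receptor signals and displace or replace that hold. Bax and Bak1 then open the outer mitochondrial membrane, which releases cytochrome c and starts the caspases. In T cells, cytokines such as IL-7 and IL-15 keep Bcl2 high in long-lived cells, Mcl1 is needed at most stages, and Bim is the main killer when a response contracts.

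The cells were splenic CD8 T cells of the OT-1 line, whose receptor sees an ovalbumin peptide, that carry CD45.1 and Cas9 and were taken in a naive-like state and given a lentiviral guide RNA with an ametrine reporter. They went into young or aged mice 1 day before B16-OVA melanoma cells, and ametrine+ cells were sorted from the tumours on day 15. Each library is ATAC-seq, in which the Tn5 enzyme cuts open DNA, and holds 5000 to 50000 cells pooled from independent mice. All groups share the Cas9 cells, the lentivirus and the tumour; they differ by guide (OTC control, Zfp219 or Dusp5), host age and sorted state. The states are progenitor exhausted cells (Tprog, Slamf6+Tim-3-), transitory effector-like cells (Ttran, Slamf6+Tim-3+), terminally exhausted cells (Tterm, Slamf6-Tim-3+) and, in aged hosts alone, age-associated dysfunctional cells (Ttad, Slamf6-Tim-3-). That makes 21 groups: 12 aged ones of 2 libraries, 3 young Tprog ones of 2, and 6 young Ttran and Tterm ones of 3, so 48 libraries in all. Ages in weeks, and which mice went into which pool, are not given in the sources used here.

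Values are the deposited normalized counts, reads in a peak divided by a library's size factor, so they compare libraries at 1 peak, and between peaks or genes only per kb of peak. The libraries held 5638413 to 16159054 reads in peaks in aged hosts and 6589023 to 29942755 in young ones. The sample numbers in the column names start again for each host age, and what they stand for is not given in the sources used here. Host age and a batch that follows those numbers cannot be told apart. Depth overlapped between the ages, with medians of 12619905.5 in aged and 16950433.5 in young hosts, and its part in the results was not tested. All 8 CD8 T cell marker genes had peaks, with a summed value of 8982 to 14861 over the libraries. No peak lay over Tyr, Tyrp1, Dct or Sox10 (melanoma), over Csf1r, Adgre1 or Lyz2 (myeloid) or over Cd79a, Cd79b or Ms4a1 (B cell). The 3 melanoma genes with a peak summed to 720 to 1406, the 4 myeloid genes to 1241 to 1871 and Pax5 and Ebf1 (B cell) to 347 to 780. These sums cover 21 CD8 T cell, 4 melanoma, 9 myeloid and 6 B cell peaks. Per kb of peak the medians over libraries were 370, 228, 180 and 91.2, and 384 for the 1 erythroid peak, over Klf1. The sums therefore do not measure purity, which was not tested. In pooled cells, fewer cells with an open site and less opening per cell cannot be told apart. Accessibility at Zfp219 or Dusp5 does not check the edits, and accessibility is not expression.

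The start regions of 4 genes are shown because the contrast between them runs through the results: Bcl2 and Mcl1 for survival, Bcl2l11 as the BH3-only gene with the widest changes, and Bak1 as the effector whose start differed between Tprog and Tterm. Each is the 250 bases before a RefSeq start (GRCm38.p6), 5′ to 3′ on the gene's own strand. Capitals mark matches, on either strand, to a GC box (GGGCGG), a FOXO motif (GTAAACA), a RUNX motif (TGTGGT) or an ETS motif (GGAAGT), and none of the matches shown overlap.
Bcl2, chr1:106714291-106714540, minus strand: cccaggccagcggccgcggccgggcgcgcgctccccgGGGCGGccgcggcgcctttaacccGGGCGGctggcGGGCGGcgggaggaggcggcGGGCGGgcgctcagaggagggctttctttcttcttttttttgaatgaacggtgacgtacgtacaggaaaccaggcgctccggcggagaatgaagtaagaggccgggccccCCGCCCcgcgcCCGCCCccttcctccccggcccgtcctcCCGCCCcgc
Mcl1, chr3:95658471-95658720, plus strand: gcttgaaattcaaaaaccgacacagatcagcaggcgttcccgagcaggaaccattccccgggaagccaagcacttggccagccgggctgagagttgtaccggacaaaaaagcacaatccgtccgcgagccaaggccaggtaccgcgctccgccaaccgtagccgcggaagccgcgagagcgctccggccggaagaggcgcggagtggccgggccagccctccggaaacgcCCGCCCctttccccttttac
Bcl2l11, chr2:128125788-128126037, plus strand: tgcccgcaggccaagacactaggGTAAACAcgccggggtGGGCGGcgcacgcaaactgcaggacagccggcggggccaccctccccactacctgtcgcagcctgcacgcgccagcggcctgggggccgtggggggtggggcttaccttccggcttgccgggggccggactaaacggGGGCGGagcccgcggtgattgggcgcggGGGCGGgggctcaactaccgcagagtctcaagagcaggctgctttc
Bak1, chr17:27028628-27028877, minus strand: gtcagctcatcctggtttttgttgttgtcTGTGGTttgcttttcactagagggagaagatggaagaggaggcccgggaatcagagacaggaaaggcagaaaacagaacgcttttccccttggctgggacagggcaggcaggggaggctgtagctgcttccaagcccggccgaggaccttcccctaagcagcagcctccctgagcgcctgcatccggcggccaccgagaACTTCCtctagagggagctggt
The Bcl2 window is 74.8% G and C and carries 7 GC boxes. The Bcl2l11 window is 72.0% G and C with 3 GC boxes and 1 FOXO match, the Mcl1 window 64.4% with 1 GC box, and the Bak1 window 58.4% with 1 RUNX match, 1 ETS match and no GC box; the median of all promoter windows was 52.4%. RefSeq gave 13 windows for 8 of the 9 genes. A GC box stood in 9 of the 13, against 32.7% of the 32851 windows of all genes, and a FOXO match in 2, at Bcl2l11 and Bbc3, against 3.17%. ETS letters were in 2 windows (19.7% of all), RUNX letters in 1 (14%) and TCF/LEF letters (CTTTGA) in 1, that of Bax (13.8%). No window held AP-1 (TGANTCA, 6.75% of all) or STAT letters (TTCNNNGAA, 7.02%). These are letter matches within 250 bases and not measured binding.

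The widest ranges of group means in the family lay away from the gene starts. The 7 peaks that hold a start of their own gene had a median level of 394 normalized counts per kb, against 118 for the other 72 peaks. Between their highest and lowest group means the start peaks differed by 0.37 to 0.91 on the log2 scale (median 0.56), and the other peaks by 0.33 to 3.29 (median 1.32). The start peaks and the others were not matched for level, so position and peak strength cannot be told apart here. Per kb, the Bcl2l1 start was the highest of the starts at 921, followed by Bbc3 at 464, Mcl1 at 456, Bak1 at 394, Bid at 370, Bcl2 at 369 and Bax at 198. Summed over its peaks, Bcl2 ranged from 2728 in young OTC Tterm to 5372 in aged Dusp5 Tprog, a fold of 1.97 between groups. The same fold was 1.85 for Bax, 1.55 for Bcl2l1, 1.51 for Bak1, 1.35 for Bcl2l11, 1.24 for Bid, 1.21 for Mcl1, 1.20 for Bbc3 and 1.16 for Pmaip1. Bax and Bak1 have 1 peak each, so their folds are those of a single site.

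**Figure D1:**
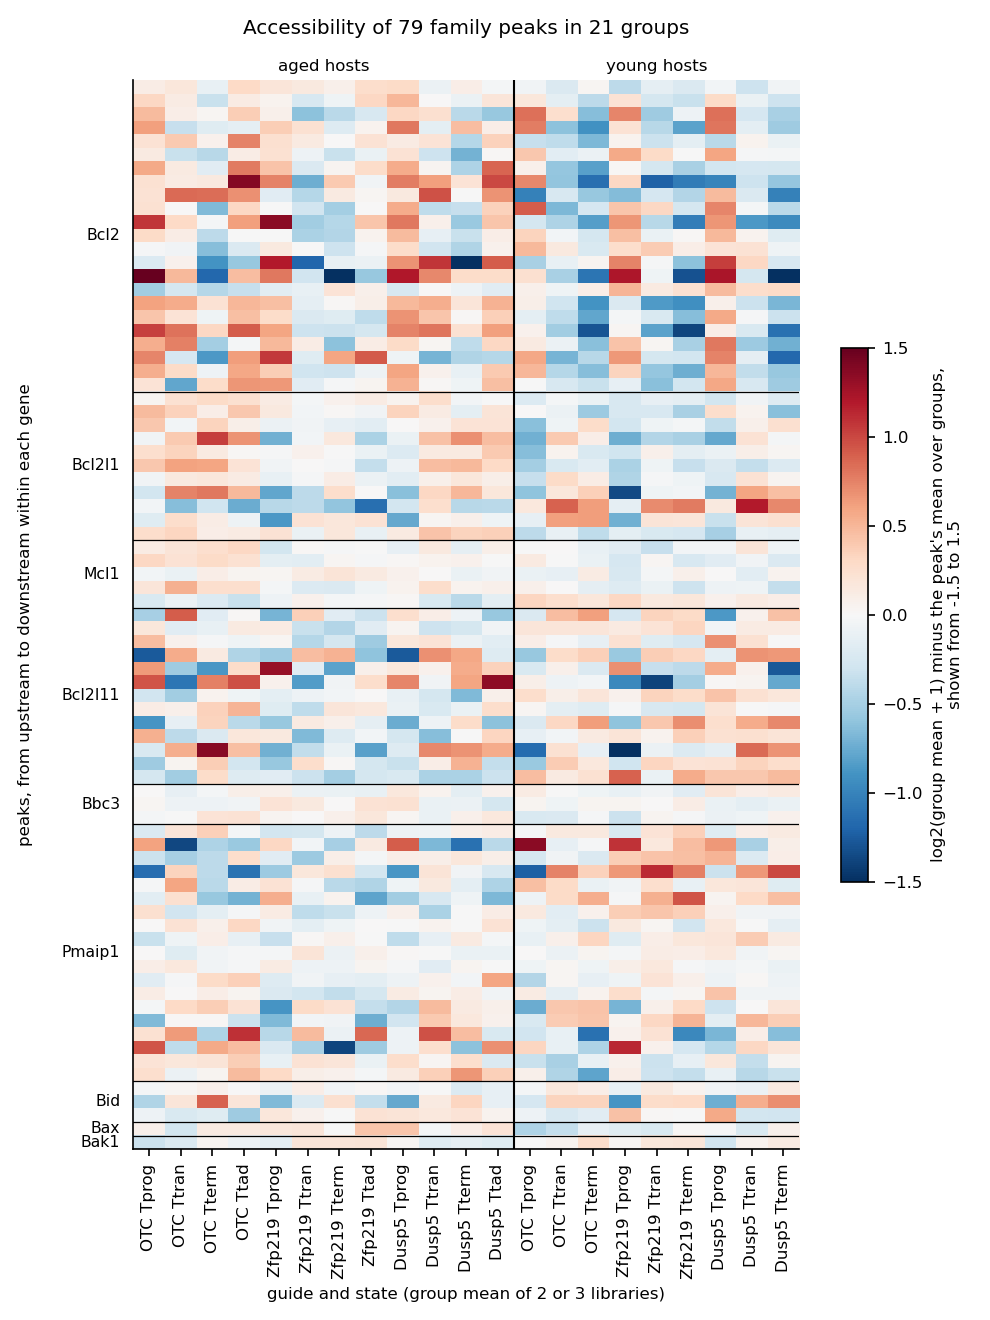
Each row is 1 of the 79 family peaks, in order along its gene (Pmaip1 by coordinate), and each column 1 of the 21 groups; the colour is the log2 group mean of 2 or 3 libraries minus the mean over groups, shown from -1.5 to 1.5. Bcl2 holds most of the deep colours that run by state, and the Bbc3 rows are nearly flat.

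Tprog cells of both ages carried more open chromatin than Tterm cells at part of the Bcl2 peaks, and less at part of the Bcl2l11 and Bcl2l1 peaks. In OTC control cells of aged hosts, 23 of the 79 family peaks differed between Tprog and Tterm, 11 higher and 12 lower in Tprog, beside 20.1% of all peaks (8.88% higher, 11.2% lower). In young hosts 32 differed, 18 higher and 14 lower, beside 26.5% of all peaks (13.9% higher, 12.6% lower). All p-values are from limma on log2(value + 1) with Benjamini-Hochberg adjustment over all peaks, peaks with an adjusted p under 0.05 are the called ones, and differences are log2 differences on that scale. The median difference was 0.06 in aged and 0.00 in young hosts over the family, and 0.01 in each over all peaks. Of the called peaks 20 were called in both ages, each in the same direction, which is 87.0% of the aged and 62.5% of the young calls. This overlap was not counted over all peaks, so it is not shown to be particular to the family. Beside single calls, the number of alternative fits that lost the call is given of all run for it, each with another scaling, pseudocount, filter, tool or design or with 1 library left out; none of the fits run turned a direction.

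Bcl2, the survival gene that cytokines maintain in resting T cells, rose at 10 of its 23 peaks in aged Tprog and at 14 in young Tprog, all 10 among the 14, and fell at none. Its widest difference was 128.8 kb inside the gene, at chr1:106585206-106585828. There the 2 aged libraries of Tprog read 148 and 189 and those of Tterm 24 and 25.7, with Ttran at 76.7 and 84.5 and Ttad at 73.8 and 85.0. Tprog stood above all other aged OTC libraries, Tterm below all, and Ttran and Ttad overlapped between them. In young hosts Tprog read 55.9 and 79.6, Ttran 45.9, 33.6 and 42.2 and Tterm 23.4, 28.3 and 27.0, the same order with no overlap. The log2 difference between Tprog and Tterm was 2.71 (SE 0.39, adjusted p = 4.03e-08) in aged and 1.32 (SE 0.36, adjusted p = 0.00296) in young hosts. Without young Tprog replicate 2 the young call there was lost (adjusted p = 0.0955).

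A pair of stronger peaks deeper in the same gene was likewise higher in Tprog than in Tterm. At 152.8 kb (chr1:106560909-106562153), aged Tprog read 782 and 702, Ttran 692 and 589.8, Ttad 672 and 705 and Tterm 464 and 439. Young Tprog read 362 and 405, Ttran 260.1, 236 and 267 and Tterm 146, 159 and 138. Tterm was lowest in each age, and the lowest aged library lay above the highest young one. Young Ttran lay between Tprog and Tterm without overlap, while aged Ttad overlapped both Tprog and Ttran. The difference between Tprog and Tterm was 0.71 (SE 0.14, adjusted p = 5e-05) in aged and 1.37 (SE 0.13, adjusted p = 2.86e-15) in young hosts. At 144.3 kb (chr1:106569260-106570775), the Bcl2 peak with the highest mean count (634), aged Tprog read 996 and 924 against 686 and 777 in Tterm, and young Tprog 671 and 675 against 325, 359 and 333. The groups did not overlap within either age, and the differences were 0.39 (SE 0.11, adjusted p = 0.00544) and 0.99 (SE 0.10, adjusted p = 1.06e-13). Without aged Tprog replicate 1 or aged Tterm replicate 1 the aged call at 144.3 kb was lost (adjusted p = 0.0925 and 0.138).

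Beyond the gene's end, 198.5 kb from the start, Bcl2 rose by 0.62 in aged and 1.14 in young Tprog. The peak 26.2 kb from the start was called in young hosts alone (1.68 (SE 0.31, adjusted p = 8.28e-06)), where Tprog read 88.1 and 138 and Tterm 46.1, 30.7 and 27.0; the aged difference was 0.79 (SE 0.34, adjusted p = 0.0869). The Bcl2 start peak (chr1:106713588-106714873), which holds the GC-rich window printed above, was not called in either age: 0.23 (SE 0.13, adjusted p = 0.242) in aged and -0.09 (SE 0.12, adjusted p = 0.661) in young hosts. Aged Tprog read 534 and 497 there and Tterm 473 and 409, so the 2 states stood apart by less than they did deeper in the gene.

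**Figure D2:**
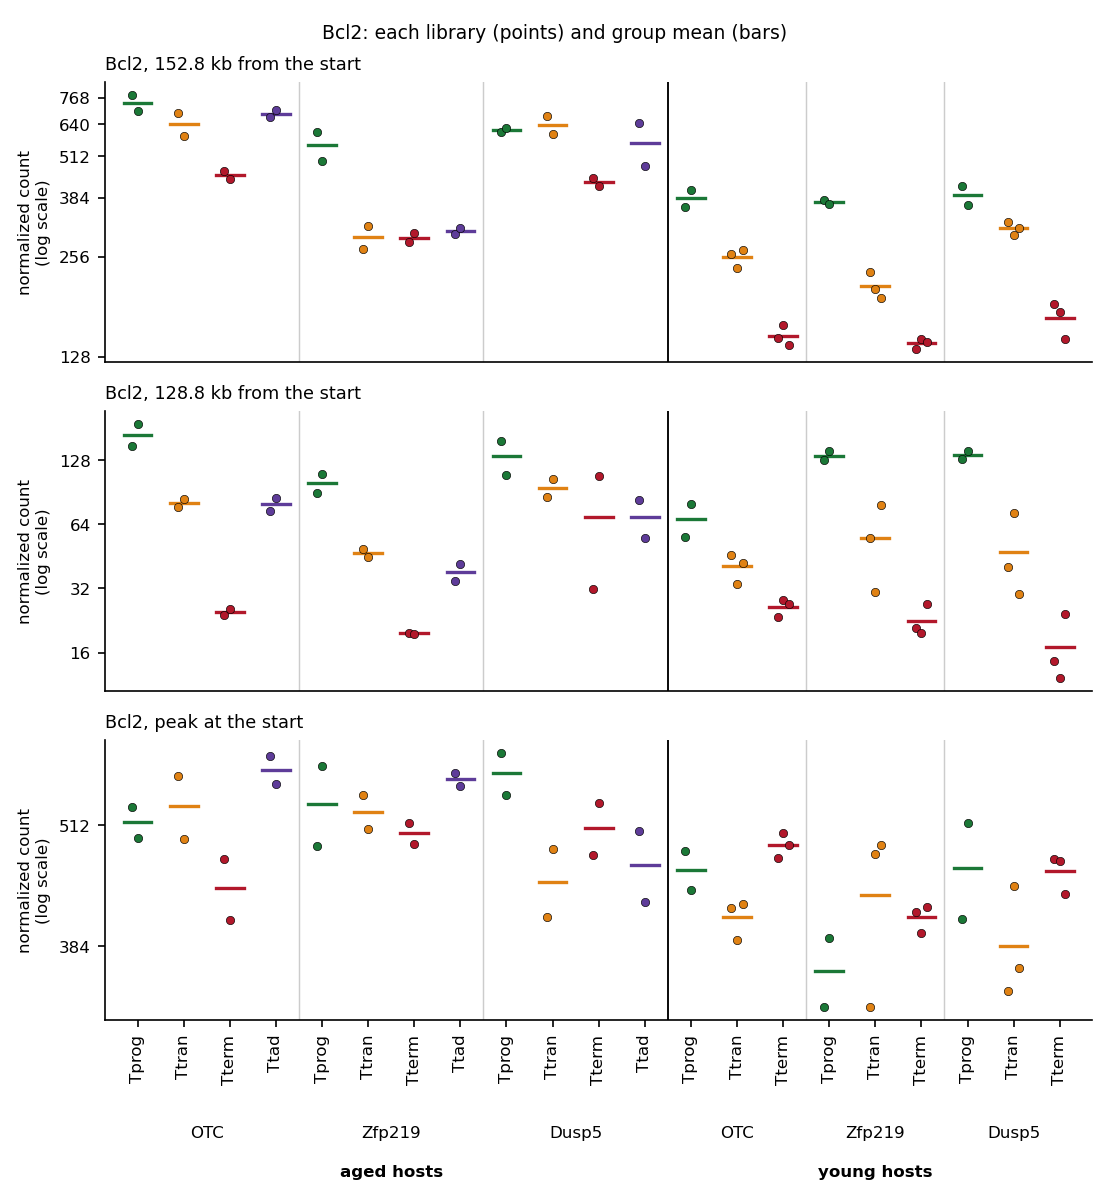
Each point is 1 library's normalized count (log axis) at a named Bcl2 peak, by guide, state and host age, and bars are group means. At 152.8 kb every aged OTC library lies above every young OTC library, and Tterm is the lowest OTC state in each age.

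Bcl2l1, which encodes Bcl-xL, went mostly the other way: 4 of its 11 peaks were lower in aged Tprog than in Tterm and none higher, and in young hosts 5 were lower and 1 higher. At 50.4 kb (chr2:152780692-152781976), aged Tprog read 153 and 136, against 316 and 269 in Ttran, 281 and 327 in Tterm and 241 and 250.1 in Ttad. Young Tprog read 131 and 99.2 against 248, 217 and 206 in Tterm. Tprog was below every other OTC library of its age. The differences from Tterm were -1.07 (SE 0.21, adjusted p = 4.51e-05) in aged and -0.96 (SE 0.19, adjusted p = 4.25e-05) in young hosts. The start peak of Bcl2l1 was lower by a small amount in aged Tprog (-0.24 (SE 0.08, adjusted p = 0.0138)), at 1519.5 and 1501 against 1802 and 1776, and was not called in young hosts (-0.10 (SE 0.07, adjusted p = 0.318)). The 1 peak higher in young Tprog lay 5.8 kb from the start (0.54 (SE 0.14, adjusted p = 0.00158)). The aged call at the start was lost in 5 of 12 alternative fits, those without any 1 of the 4 libraries and that after quantile normalization (adjusted p up to 0.417), and the young one at 5.8 kb without young Tprog replicate 2 (adjusted p = 0.157); those at 50.4 kb were lost in none.

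Mcl1, a short-lived survival protein, had no peak called between Tprog and Tterm in either age; of its 5 peaks the medians were -0.07 in aged and 0.16 in young hosts. Its start peak read 770.0 and 767 in aged Tprog and 841 and 857 in aged Tterm, and 756 and 720.4 against 946, 813 and 826 in young hosts.

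Bcl2l11, which encodes the killer Bim, fell in Tprog at the same 4 of its 13 peaks in both ages and rose at none. The widest was 100.8 kb from the start, at chr2:128226521-128227135 beyond the gene's end. Aged Tprog read 91.7 and 67.4, Ttran 168 and 105, Ttad 114 and 144 and Tterm 231 and 257. Young Tprog read 44.4 and 38.5, Ttran 92.7, 139 and 99.2 and Tterm 87.9, 79.4 and 90.0. Tprog was lowest in each age, and Tterm stood highest in aged hosts but not in young ones, where all 3 Ttran libraries lay above it. The differences between Tprog and Tterm were -1.62 (SE 0.28, adjusted p = 3.31e-06) and -1.03 (SE 0.26, adjusted p = 0.00102). The peak 36.9 kb from the start, which crosses the gene's end, fell in Tprog of both ages, with differences of -1.46 (SE 0.29, adjusted p = 5.4e-05) in aged and -0.91 (SE 0.27, adjusted p = 0.00574) in young hosts. The peak at 78.2 kb, which lies in the long non-coding gene Gm14009, fell likewise, with differences of -1.22 (SE 0.24, adjusted p = 5.62e-05) and -0.87 (SE 0.22, adjusted p = 0.00148); without young Tprog replicate 1 the young calls at 36.9 and 78.2 kb were lost (adjusted p = 0.064 and 0.175).

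The Bim start itself is covered by a peak (chr2:128125440-128128063) that also overlaps the end of Acoxl and is counted to that gene by the rule, so it is not among the 79. It holds 2 Bcl2l11 starts, including that of the window printed above. It read 1127 and 1222 in aged Tprog and 1401 and 1423 in aged Tterm, and 1205 and 1072 against 1505, 1483 and 1557 in young hosts, with no overlap. The differences between Tprog and Tterm were -0.27 (SE 0.08, adjusted p = 0.00814) in aged and -0.41 (SE 0.07, adjusted p = 2.47e-06) in young hosts, the direction of the 4 called peaks at a smaller size. The aged call was lost without aged Tprog replicate 1 (adjusted p = 0.157), without aged Tterm replicate 2 (0.0646) and after quantile normalization (0.283). The farthest peak kept for Bcl2l11 was 87758 bp from the gene, with a mean of 57.4, and the nearest one left out 125390 bp away, with a mean of 41.8.

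The other BH3-only genes were mixed or flat. Pmaip1, which encodes the Mcl1 antagonist Noxa, had 1 peak higher and 2 lower of 19 in aged Tprog, and 3 higher and 4 lower in young Tprog. Its widest peak, 49.2 kb below the gene's lower boundary, read 60.0 and 73.6 in aged Tprog against 30.5 and 32.1 in Tterm, and 93.8 and 133 against 32.9, 51.1 and 45.6 in young hosts, a rise of 1.06 and 1.37. The aged call at 49.2 kb was lost in 5 of 12 alternative fits, those without any 1 of the 4 libraries and that after quantile normalization (adjusted p up to 0.239). A peak 36.2 kb below the boundary fell in young Tprog (-1.57 (SE 0.46, adjusted p = 0.0064)), and both young calls were lost without young Tprog replicate 2 (adjusted p = 0.0839 and 0.0913). Bid, which caspase-8 cleaves into its active form, fell 14.7 kb from the start in aged Tprog (-1.29 (SE 0.31, adjusted p = 0.000747)): Tprog read 65.7 and 60.3, Tterm 198 and 122, and young Tprog 60.2 and 83.8 against 109, 103 and 116, where it was not called (-0.61 (SE 0.28, adjusted p = 0.0954)). Without aged OTC Tterm replicate 1, the Bid call was lost (adjusted p = 0.0836). Bbc3, the p53 target that encodes Puma, had none of its 3 peaks called.

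Of the effectors, Bak1 was lower in Tprog at its start peak (chr17:27027315-27028908), which also overlaps Ggnbp1. Aged Tprog read 504 and 479 and Tterm 621 and 647, and young Tprog 639 and 589.5 against 827, 689 and 709. Tprog lay below Tterm with no overlap in each age, and the differences were -0.37 (SE 0.12, adjusted p = 0.0145) and -0.27 (SE 0.11, adjusted p = 0.0487). The Bak1 call was lost in 3 of 12 alternative fits in aged hosts (without Tprog replicate 2 or Tterm replicate 2 and after quantile normalization) and in 5 of 13 in young ones (without Tprog replicate 1 or 2 or Tterm replicate 1 or 3 and after quantile normalization), with adjusted p up to 0.116 and 0.31. The single Bax peak (chr7:45466039-45467337) was not called, at -0.04 (SE 0.18, adjusted p = 0.907) and -0.38 (SE 0.17, adjusted p = 0.0841).

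**Figure D3:**
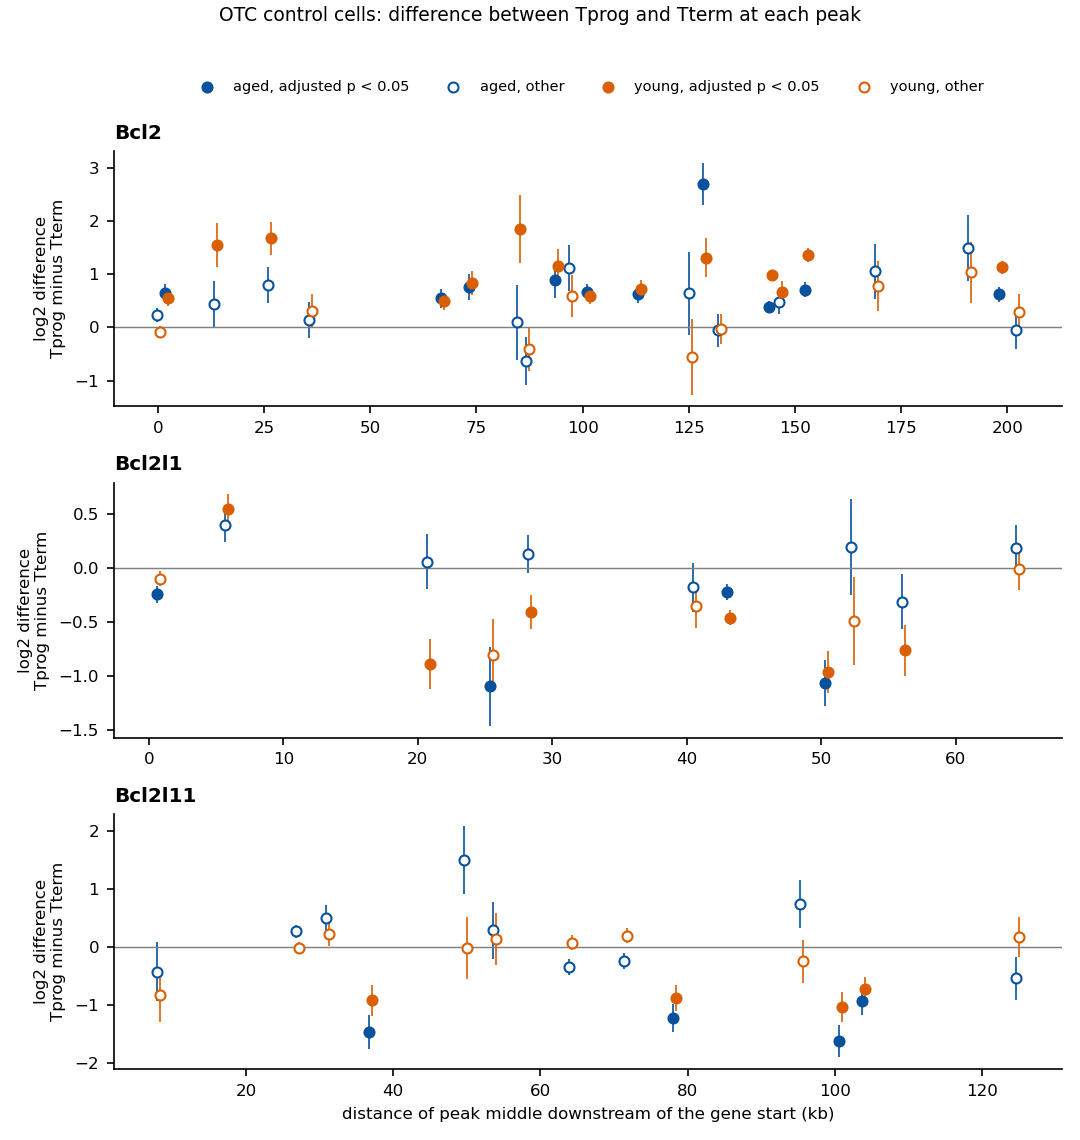
Points are log2 differences between Tprog and Tterm in OTC cells at each peak, with bars of 1 SE, by kb downstream of the gene start for Bcl2, Bcl2l1 and Bcl2l11; filled points passed an adjusted p under 0.05. All filled Bcl2 points lie above 0 and all filled Bcl2l11 points below it, in both ages.

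The p-values rest on the spread between pools within groups, estimated over all 21 groups together and not from the compared groups alone. With 2 or 3 pools a group, single libraries decided part of the counts. Without aged Tprog replicate 2 the aged count was 13, and without aged Tterm replicate 1 it was 14; without young Tprog replicate 2 the young count was 17 and that of Bcl2 9 in place of 14. The aged Bcl2 count was 7 without any 1 of its 4 libraries, all 7 higher in Tprog.

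The same contrast in cells with the other guides used none of these OTC libraries. Of the 23 peaks called in aged OTC cells, 22 had the same sign in aged Zfp219 cells and 13 were called there, and 21 had it in aged Dusp5 cells with 18 called. Of the 32 young ones, 32 had the same sign in Zfp219 cells (17 called) and 29 in Dusp5 cells (20 called), and no peak was called in the opposite direction. The same shares were not counted over all peaks, so whether this accord is particular to the family was not tested. The aged peaks of opposite sign were the Bcl2l1 start with both guides (0.05 with Zfp219, 0.10 with Dusp5) and the Bak1 start with Dusp5 (0.16 (SE 0.12, adjusted p = 0.336)); in young Zfp219 cells the Bak1 start had the same sign and was not called (-0.15 (SE 0.11, adjusted p = 0.303)). Over the whole family the calls were 18 in aged Zfp219 cells (18.8% of all peaks), 27 in aged Dusp5 cells (22.9%), 24 in young Zfp219 cells (26.8%) and 31 in young Dusp5 cells (29.8%). These comparisons were added after the data had been seen.

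Transitory and dysfunctional cells were also more open than Tterm at parts of Bcl2; these contrasts use the same Tterm libraries as the one above. In aged hosts 6 family peaks differed between Ttran and Tterm, 4 higher and 2 lower, beside 3.22% of all peaks (1.87% higher, 1.35% lower). Bcl2 rose in Ttran at 128.8 kb (1.66 (SE 0.39, adjusted p = 0.00676)) and at 152.8 kb (0.50 (SE 0.14, adjusted p = 0.0299)), and Bcl2l11 fell at 64.1 kb (-0.57 (SE 0.14, adjusted p = 0.00729)). In young hosts 4 differed, 3 higher and 1 lower, beside 8.38% of all peaks (5.02% higher, 3.36% lower), with Bcl2 higher at 152.8 kb (0.78 (SE 0.12, adjusted p = 5.12e-07)) and 144.3 kb (0.59 (SE 0.09, adjusted p = 1.07e-06)) and the Mcl1 start lower (-0.24 (SE 0.08, adjusted p = 0.0426)). The aged count was 0 without aged Tterm replicate 1 (13 family peaks then had an unadjusted p under 0.05) and 2 without Ttran replicate 1. The young count was 2 without Tterm replicate 3 or without Ttran replicate 1 or 2, and its split was 6 higher and 1 lower with edgeR and TMM scaling and 3 and 0 after quantile normalization. Of the named calls, those in aged hosts were lost in 2 of 12 alternative fits at Bcl2 128.8 kb, 4 of 12 at 152.8 kb and 3 of 12 at Bcl2l11 64.1 kb (adjusted p up to 0.0815, 0.251 and 0.258), and the Mcl1 start in 5 of 14 (up to 0.305), while both young Bcl2 calls were lost in none. The remaining calls in aged Ttran were not all at Bcl2. Pmaip1 rose 29.4 kb below the gene (0.98 (SE 0.24, adjusted p = 0.0101)) and Bcl2 rose at 113.3 kb (0.58 (SE 0.18, adjusted p = 0.0422)). Bcl2l11 fell at 53.8 kb (-1.78 (SE 0.49, adjusted p = 0.0244)), the widest of the 6. The remaining call in young Ttran was a rise at Bcl2l1 5.8 kb (0.46 (SE 0.12, adjusted p = 0.00969)). Over all called peaks the share higher in young Ttran was 59.9%, and 70.3% with edgeR and TMM scaling.

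Ttad cells, which lack both sorting markers and were profiled in aged hosts alone, differed from Tterm at 8 family peaks, 6 higher and 2 lower, beside 7.28% of all peaks (3.02% higher, 4.26% lower). The 6 were all at Bcl2. They included the 128.8 kb peak (1.64 (SE 0.39, adjusted p = 0.00302)), the 152.8 kb peak (0.61 (SE 0.14, adjusted p = 0.00213)) and the start (0.41 (SE 0.13, adjusted p = 0.0398)), where Ttad read 604 and 565 and Tterm 473 and 409. Both peaks that fell were at Bcl2l11, at 100.8 kb (-0.92 (SE 0.28, adjusted p = 0.0269)) and 78.2 kb (-0.74 (SE 0.24, adjusted p = 0.0463)). Against Tprog, 1 family peak differed, beside 6.55% of all peaks (3.82% higher, 2.73% lower): Bcl2l1 at 50.4 kb was higher in Ttad (0.77 (SE 0.21, adjusted p = 0.0136)). Leaving out Ttad replicate 1, Tterm replicate 1 or Tterm replicate 2 took the first count to 3, 2 and 5, and quantile normalization took it to 6 higher and 1 lower. Leaving out Tprog replicate 1 or Ttad replicate 1 took the second to 0, with 9 and 15 unadjusted p under 0.05, and edgeR with TMM scaling gave 1 higher and 1 lower. The Ttad calls against Tterm at 128.8 and 152.8 kb of Bcl2 were lost in no alternative fit, that at the Bcl2 start in 4 of 12, and those of Bcl2l11 in 3 of 12 at 100.8 kb and 8 of 12 at 78.2 kb (adjusted p up to 0.353, 0.242 and 0.274); the Bcl2l1 call against Tprog was lost without any 1 of the 4 libraries (up to 0.144).

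Host age was compared in OTC cells as the mean over Tprog, Ttran and Tterm. Aged hosts had more open chromatin at most of the called peaks of Bcl2 and Bcl2l1. Of the 79 family peaks 38 differed, 26 higher and 12 lower in aged hosts, beside 36.5% of all peaks, of which 17.3% were higher and 19.1% lower. The median difference was 0.10 over the family and 0.00 over all peaks. The myeloid marker sum also ran with host age, at 1287 to 1668 in aged and 1673 to 1770 in young OTC libraries, while those of CD8 T cell and melanoma markers overlapped; its part in the result was not tested.

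At Bcl2, 9 peaks rose and 3 fell with age. The 152.8 kb peak, whose library values are given above, rose by 1.30 (SE 0.08, adjusted p = 5.78e-27), and within each state by 0.95 in Tprog, 1.33 in Ttran and 1.61 in Tterm. The 144.3 kb peak rose by 0.82 (SE 0.06, adjusted p = 2.37e-21). At Bcl2l1, 8 of 11 peaks rose and 1 fell. The widest of the 8 rises was at 40.6 kb (0.83 (SE 0.12, adjusted p = 2.83e-08)), with 229 and 196 in aged Ttran against 128, 116 and 113 in young Ttran. Its start rose by 0.29 (SE 0.04, adjusted p = 6.87e-09): the 6 aged libraries of the shared states ran from 1501 to 1841 and the 8 young ones from 1274 to 1491, without overlap.

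At Mcl1, the peak 5.7 kb from the start, just past the gene's end (chr3:95663616-95665311), rose by 0.34 (SE 0.06, adjusted p = 6.62e-07), while that at 10.2 kb fell by 0.42 (SE 0.06, adjusted p = 3.18e-08). Among the BH3-only genes, Bcl2l11 moved both ways. Its 100.8 kb peak rose by 0.90 (SE 0.15, adjusted p = 8.58e-07) and its 64.1 kb peak fell by 0.43 (SE 0.07, adjusted p = 1.13e-06). Pmaip1 had 3 peaks higher and 3 lower of 19, Bbc3 1 higher of 3 and Bid none of 3. The effectors parted: the Bax start rose by 0.31 (SE 0.10, adjusted p = 0.00984) and the Bak1 start fell by 0.27 (SE 0.06, adjusted p = 0.000255). Bax read 275 and 268 in aged Tprog and 224 and 147 in young Tprog, with overlap between ages in Ttran and Tterm, and its call was lost without aged Tterm replicate 1, aged Ttran replicate 2 or young Tprog replicate 2 (adjusted p up to 0.124). Within single states the family counts were 17 in Tprog (15.4% of all peaks), 20 in Ttran (18.3%) and 19 in Tterm (18.9%).

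Whether the gap between Tprog and Tterm itself differed by age was tested in the same fit. At 2 family peaks it did, which is 2.53% of the family and close to the 2.32% of all peaks (0.512% more positive, 1.81% more negative). Both were at Bcl2. On the log2 scale, though not in counts at 152.8 kb, the gap was narrower in aged hosts at 152.8 kb (-0.66 (SE 0.19, adjusted p = 0.0442)) and at 144.3 kb (-0.59 (SE 0.15, adjusted p = 0.0129)). The wide 128.8 kb gap was not called as different (1.39 (SE 0.53, adjusted p = 0.175)). The count was 0 without aged Tprog replicate 2, aged Tterm replicate 2 or young Tprog replicate 2 (11, 8 and 9 family peaks then had an unadjusted p under 0.05), and 1 without aged Tprog replicate 1, aged Tterm replicate 1, young Tprog replicate 1 or young Tterm replicate 1 or 3. After quantile normalization the 2 calls were 1 higher and 1 lower. Over all called peaks the share with a more positive gap in aged hosts was 22.1%, and 46.8% after quantile normalization.

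**Figure D4:**
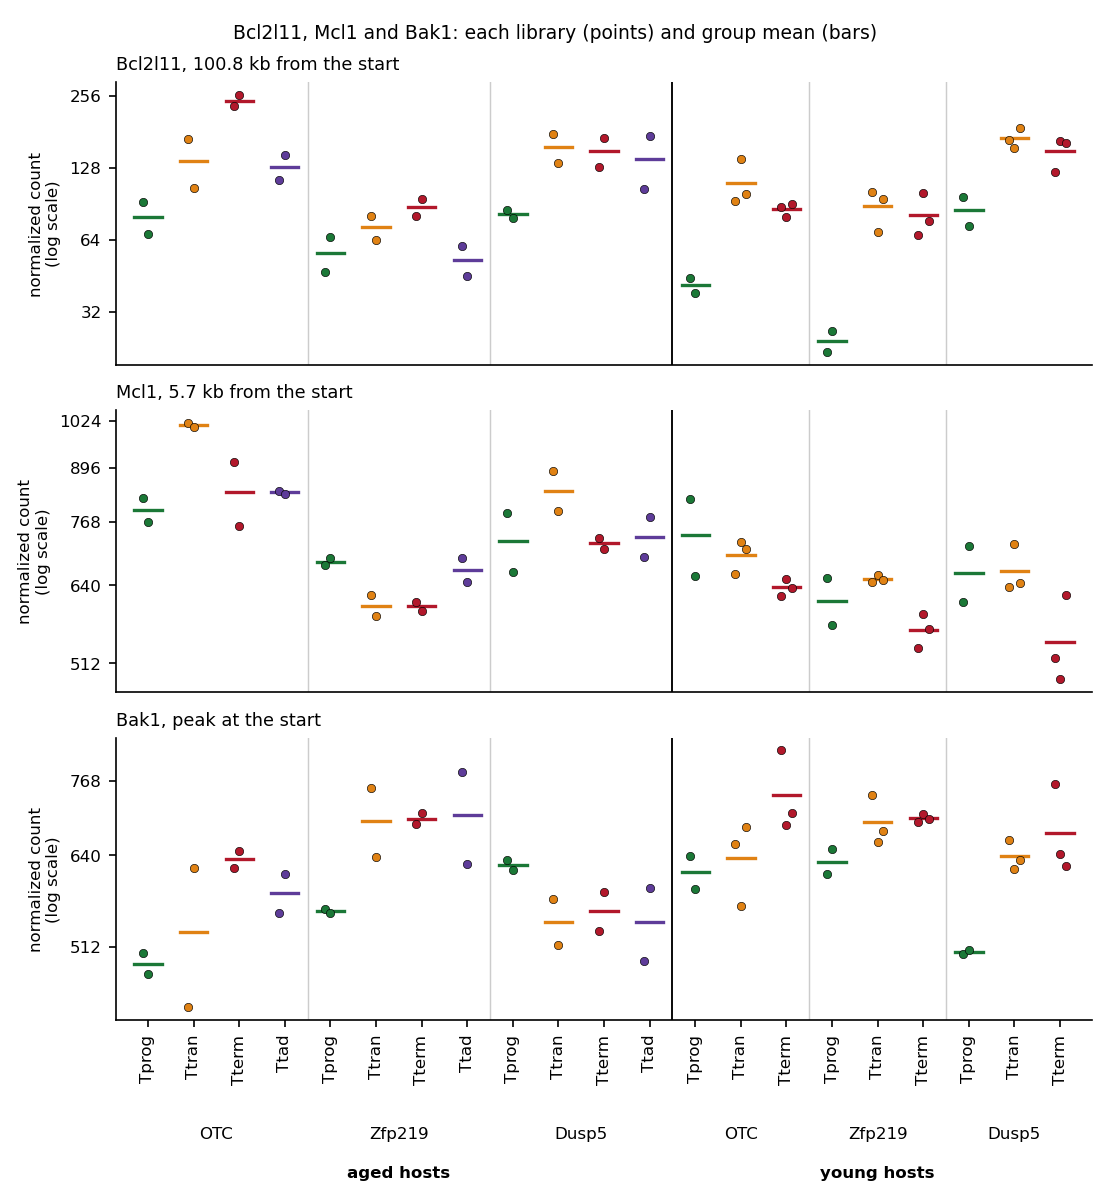
Each point is 1 library's normalized count (log axis) at Bcl2l11 100.8 kb, Mcl1 5.7 kb and the Bak1 start, by guide, state and host age, and bars are group means. At the Bcl2l11 peak aged OTC Tterm is the highest OTC group, and aged Zfp219 Tterm lies below it without overlap.

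With the Zfp219 guide, the family peaks that changed in aged hosts were mostly lower. As the mean over 4 states, 28 family peaks differed from OTC, 3 higher and 25 lower, beside 25.8% of all peaks, of which 12.1% were higher and 13.7% lower. The median difference was -0.16 over the family and 0.01 over all peaks. Peaks of all 3 survival genes were among those that fell. Of the 7 start peaks 2 were called higher and 1 lower (median difference 0.12). Of the other 72 peaks 1 was called higher and 24 lower (median -0.19). The same split over all peaks is not given here. This contrast uses the same OTC libraries as the age contrast, so the 2 are not independent.

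Bcl2 fell at 7 peaks and rose at none. At 152.8 kb, aged Zfp219 Ttran read 270.4 and 316, Tterm 283 and 301, Ttad 298 and 312 and Tprog 608 and 496. Each of these lay below the OTC libraries of its state, without overlap. The mean difference was -0.84 (SE 0.07, adjusted p = 2.17e-17), and by state -1.12 (SE 0.14, adjusted p = 1.72e-09) in Ttran, -0.63 (SE 0.14, adjusted p = 0.0029) in Tterm and -1.17 (SE 0.14, adjusted p = 3.7e-09) in Ttad, while in Tprog it was not called (-0.43 (SE 0.14, adjusted p = 0.083)). The Tterm call was lost without OTC Tterm replicate 1 or Zfp219 Tterm replicate 1 (adjusted p = 0.0679 and 0.0802). The 144.3 kb peak fell by 0.36 (SE 0.06, adjusted p = 1.85e-07). Summed over its peaks, Bcl2 read 3564 and 3314 in aged Zfp219 Ttran against 4890 and 4376 in OTC Ttran, and 3880 and 4095 against 5129 and 5023 in Ttad.

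Bcl2l1 fell at 6 of 11 peaks, with the lowest adjusted p at 50.4 kb (-0.67 (SE 0.11, adjusted p = 3.16e-07)). Mcl1 fell at 3 of 5 and rose at 1. At 5.7 kb, aged Zfp219 Ttran read 622 and 586 against 1018 and 1008 in OTC Ttran, Tterm 610.1 and 595 against 911 and 759, Ttad 692 and 645 against 838 and 832 and Tprog 678 and 691 against 821 and 767. The Zfp219 libraries were lower in all 4 states without overlap, and the mean difference was -0.44 (SE 0.05, adjusted p = 1.27e-10). The 10.2 kb peak of Mcl1 rose (0.20 (SE 0.06, adjusted p = 0.00524)).

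Of the killers, Bcl2l11 fell at 4 peaks. At 100.8 kb, aged Zfp219 Tterm read 80.1 and 94.5 against 231 and 257 in OTC Tterm, and Ttad 60.2 and 45.2 against 114 and 144. The mean difference was -1.03 (SE 0.14, adjusted p = 4.64e-09), and in Tterm alone -1.47 (SE 0.28, adjusted p = 0.000258). Pmaip1 fell at 4 of 19 peaks and Bid at 1, a call lost in 10 of 24 alternative fits (adjusted p up to 0.169). The 3 peaks that rose were the Mcl1 peak above and the starts of Bbc3 and Bak1. At the Bbc3 start, aged Zfp219 Tprog read 1321 and 1196 against 1122 and 1107 and Ttad 1282 and 1249 against 1069.8 and 1029.9, a rise over states of 0.19 (SE 0.04, adjusted p = 0.000331). Bak1 rose by 0.25 (SE 0.06, adjusted p = 0.000461), with 754 and 637 in Ttran against 442 and 620.1 in OTC Ttran, above both OTC libraries. By state the family counts were 1 in Tprog (2.56% of all peaks), 15 in Ttran (14.2%), 3 in Tterm (3.57%) and 9 in Ttad (8.23%). Depth differed between guides: aged Ttran held 9060635 and 8547780 reads in peaks with OTC and 12793436 and 16034483 with Zfp219. Ttad held 8059981 and 10929698 against 15723953 and 15700492, and Tprog 11511619 and 14660613 against 9160914 and 12792515. Tterm held 12447296 and 14780826 against 15249285 and 16159054. The part of depth in these counts was not tested. The 1 call in Tprog was Mcl1 7.3 kb before the start (-0.46 (SE 0.11, adjusted p = 0.00854)). That call was lost without OTC Tprog replicate 1 or Zfp219 Tprog replicate 2 (adjusted p = 0.19 and 0.198).

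In young hosts the Zfp219 guide changed 10 family peaks, 3 higher and 7 lower, beside 7.07% of all peaks (1.92% higher, 5.15% lower). Bcl2 fell at 144.3 kb (-0.30 (SE 0.06, adjusted p = 0.000119)), Bcl2l1 at 3 peaks, including 43.1 kb (-0.20 (SE 0.04, adjusted p = 0.000105)), and Mcl1 at 2, including 5.7 kb (-0.18 (SE 0.05, adjusted p = 0.0252)). Bcl2l11 fell at 53.8 kb (-1.02 (SE 0.25, adjusted p = 0.00383)). The 3 that rose were all at Pmaip1, with the widest 36.2 kb below the gene (0.82 (SE 0.26, adjusted p = 0.0333)); its call was lost in 8 of 23 alternative fits (adjusted p up to 0.179), and those at 16.6 and 48.1 kb below the gene in 6 of 24 and 2 of 24. The Mcl1 calls were lost in 5 of 24 at 5.7 kb and 14 of 24 at the other peak, 7.3 kb before the start (adjusted p up to 0.213 and 0.269). Without young OTC Tprog replicate 2 the count was 6. By state 1 was called in Tprog (0.997% of all peaks), 7 in Ttran (5.88%) and 0 in Tterm (0.275%). Young Ttran held 29942755, 17002746 and 12629361 reads in peaks with OTC and 6589023, 7606132 and 7952298 with Zfp219. Young Tprog held 18493537 and 15520213 against 13047103 and 9764589. Young Tterm held 20802933, 16737521 and 23362020 against 18521013, 19656024 and 20073943. The part of depth was not tested here either.

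The Zfp219 effect itself differed by host age at 8 family peaks, each more negative in aged hosts, beside 9.11% of all peaks (4.09% more positive, 5.01% more negative). They were 3 at Bcl2, 3 at Pmaip1 and 1 each at Bcl2l1 and Mcl1. At Bcl2 152.8 kb, young Zfp219 Ttran read 229, 204 and 191 against 260.1, 236 and 267 in young OTC Ttran, and Tterm 135, 144 and 142 against 146, 159 and 138. The young difference was -0.13 (SE 0.07, adjusted p = 0.294), and the difference between ages -0.59 (SE 0.11, adjusted p = 5.5e-05). At Mcl1 5.7 kb it was -0.29 (SE 0.08, adjusted p = 0.0115). The count was 5 without aged OTC Tprog replicate 2, aged OTC Ttran replicate 1, aged Zfp219 Ttran replicate 2 or young OTC Tprog replicate 2. Of the 8 calls, that at Bcl2 152.8 kb alone was lost in none of 36 alternative fits, and the others were lost in 1 to 16.

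**Figure D5:**
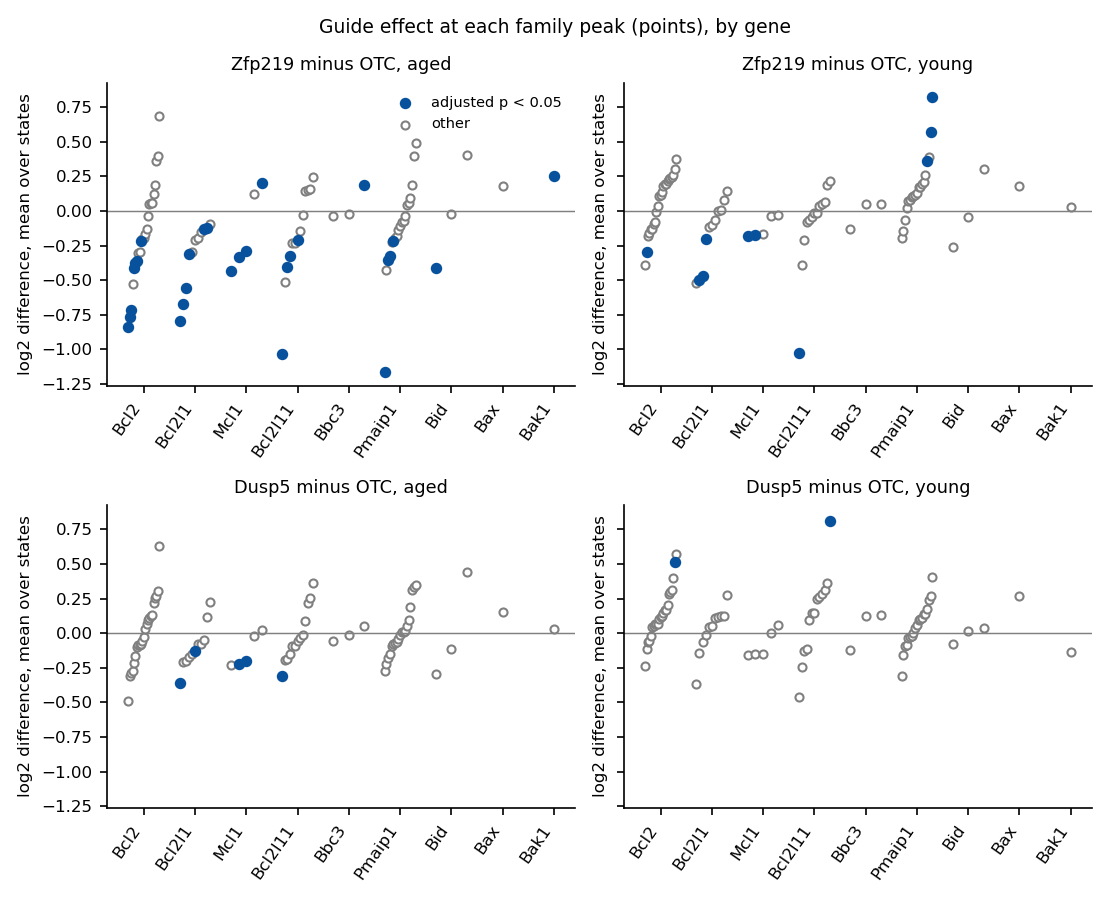
Each point is 1 family peak's log2 difference between a guide and OTC, averaged over states, by gene and host age; filled points passed an adjusted p under 0.05. With Zfp219 in aged hosts 25 filled points lie below 0 and 3 above, and with Dusp5 in aged hosts all 5 lie below.

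The Dusp5 guide, against a phosphatase that acts on ERK, changed few family peaks. In aged hosts 5 differed, all lower, beside 12.2% of all peaks (4.35% higher, 7.87% lower): Mcl1 7.3 kb before the start (-0.22 (SE 0.06, adjusted p = 0.00279)) and at 5.7 kb (-0.20 (SE 0.05, adjusted p = 0.00584)), Bcl2l1 at 50.4 kb (-0.36 (SE 0.11, adjusted p = 0.0145)) and at the start (-0.13 (SE 0.04, adjusted p = 0.012)), and Bcl2l11 at 71.5 kb (-0.31 (SE 0.07, adjusted p = 0.000688)). After quantile normalization the calls at the Bcl2l1 start and at Mcl1 5.7 kb were lost (adjusted p = 0.738 and 0.132). That at the start was also lost without OTC Ttran replicate 2 (0.0671), and that at Bcl2l1 50.4 kb without Dusp5 Tprog replicate 2 or Tterm replicate 2 (adjusted p = 0.0643 and 0.0614). No Bcl2 peak was called; at 152.8 kb the difference was -0.16 (SE 0.07, adjusted p = 0.12). Without aged Dusp5 Ttad replicate 1 the count was 8.

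In young hosts 2 family peaks differed with Dusp5, both higher, beside 3.82% of all peaks (1.8% higher, 2.02% lower). Bcl2l11 rose at 100.8 kb: young Dusp5 Tprog read 96.6 and 73.4, Ttran 168, 155 and 187 and Tterm 123, 165 and 162, each above all OTC libraries of its state. The rise was 0.81 (SE 0.14, adjusted p = 6.18e-05). Bcl2 rose at 146.6 kb (0.51 (SE 0.12, adjusted p = 0.00393)). The count was 4 without young Dusp5 Tterm replicate 3 or Ttran replicate 2. At 3 family peaks the Dusp5 effect differed by host age, beside 4.0% of all peaks (1.27% more positive, 2.73% more negative): Bcl2l11 at 100.8 kb (-0.96 (SE 0.22, adjusted p = 0.0024)) and 71.5 kb (-0.48 (SE 0.11, adjusted p = 0.00235)) and Bcl2l1 at 28.3 kb (-0.50 (SE 0.13, adjusted p = 0.0154)), all lower in aged than in young hosts; the Bcl2l1 call was lost without aged Dusp5 Tterm replicate 2 or aged OTC Tterm replicate 1 (adjusted p = 0.0682 and 0.0503). In single states the limma counts with Dusp5 were 0 in all 3 young states (0.782%, 0.646% and 0.273% of all peaks), where 17, 7 and 10 family peaks in Tprog, Ttran and Tterm had an unadjusted p under 0.05.

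Genes around the family were counted from 3 lists chosen with results of these data known, and the shares called are read beside those of all peaks, 20.1% in aged and 26.5% in young Tprog against Tterm, 36.5% with age and 25.8% with Zfp219 in aged hosts. The 12 other family genes, such as Bmf and the Bcl2a1 copies, whose near-identical sequences make their reads uncertain, had 33 peaks. Of these 4 rose and 0 fell in aged Tprog (12.1% called), 3 at Bcl2l14 and 1 at Bmf, a BH3-only gene, and 6 rose and 2 fell in young Tprog (24.2%), both shares below those of all peaks. With age 12 rose and 4 fell (48.5%), and with Zfp219 in aged hosts 6 rose and 8 fell (42.4%). The 12 genes of the mitochondrial death machinery, such as Apaf1 and Casp9, had 41 peaks, of which 2 rose and 6 fell in aged Tprog (19.5%), 3 rose and 5 fell in young Tprog (19.5%), 4 rose and 10 fell with age (34.1%), and 9 rose and 7 fell with Zfp219 in aged hosts (39.0%). The 8 survival inputs, such as Il7r, Foxo1 and Stat5a, had 63 peaks, of which 6 rose and 15 fell in aged Tprog (33.3%), 9 rose and 12 fell in young Tprog (33.3%), 15 rose and 12 fell with age (42.9%), and 4 rose and 17 fell with Zfp219 in aged hosts (33.3%).

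Across the 21 group means, peaks of 1 gene did not always run together. The median Pearson r between pairs of peaks was 0.47 within Bcl2 (210 pairs, from -0.61 to 0.96) and 0.50 within Bcl2l1, but -0.11 within Mcl1, -0.01 within Bcl2l11 and 0.03 within Pmaip1. Among peaks of other genes, the most like Bcl2 at 128.8 kb were peaks of Prss38 (r = 0.950), Vangl2 (0.947) and Itgb1 (0.942). For Bcl2l11 at 100.8 kb they were Cd200r3 (r = 0.923), Zfp809 (0.917) and Arid5b (0.914), for Mcl1 at 5.7 kb Rora (r = 0.918), Lcp1 (0.910) and Ece1 (0.909), and for Bid at 14.7 kb Zmiz1 (r = 0.951), Tbc1d16 (0.937) and Gm21451 (0.933). All r values share the same 48 libraries and their scaling, 44815 peaks were searched, and no test was made.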

How the data were processed

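The data are 1 deposited table of ATAC-seq signal, 53868 peaks in 48 libraries, described as normalized counts by the authors, with coordinates in mm10. Per the submitters' processing notes, Bowtie2 2.2.9, Picard 2.8.0, SAMtools 1.3.1, MACS2 2.1.1 and DESeq2 1.28.1 were used; how peaks were called and merged is not given in the sources used here. Low values are whole multiples of 1 step in each library, and 100.0% of values came out as whole reads (tolerance 1e-06), which gives the depths.

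Every column was mapped to a sample by its title. Peaks were assigned to genes with RefSeq gene bodies of GRCm38.p6 (21896 protein-coding genes, 100 kb limit); distances run from the first RefSeq start, and for Pmaip1 from the gene's lower coordinate. Members and lists were chosen with earlier results of these data known. limma 3.58.1 in R 4.3.3 (lmFit, eBayes with trend) was fitted to log2(value + 1) of all peaks with 21 group means and no low-value filter, with Benjamini-Hochberg adjustment over 53868 peaks. The pseudocount understates changes of weak peaks: 75 of the 79 members had a mean of at least 20. The script was tested on simulated data. One marker gene is not reported here. Named are each gene's start peak, strongest peak and most variable peak, and up to 5 called peaks with the lowest adjusted p per direction and comparison; Bcl2 at 101.4 kb and Pmaip1 at 54.0 kb are also named as differences between ages. Alternatives were edgeR 4.0.16 on the recovered reads (TMM or deposited scaling), a pseudocount of 8, quantile normalization, library weights, removal of the weakest 25% of peaks, the replicate block, the compared groups alone and each library left out. Libraries of 1 group differed beyond counting noise in all 33 pairs (chi-square per degree of freedom 2.81 to 4.57).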

Additional observations from a re-analysis of the deposited data

Results flagged for a closer look

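At 13 pairs of family peak and comparison a difference itself differed between host ages by the interaction test (limma, adjusted over all peaks); no group has 4 libraries, so single libraries were not tested as outliers. All 13 are aged minus young, and those of 1 guide share the OTC libraries with the age contrast.

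On the log2 scale, the gap between Tprog and Tterm in OTC cells was narrower in aged hosts at Bcl2 152.8 kb (-0.66 (SE 0.19, adjusted p = 0.0442)) and Bcl2 144.3 kb (-0.59 (SE 0.15, adjusted p = 0.0129)). The first held an adjusted p under 0.05 in 6 of 17 alternatives and the second in 14 of 17. Both were positive within each age.

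The Zfp219 effect was more negative in aged hosts at Bcl2 152.8 kb (-0.59 (SE 0.11, adjusted p = 5.5e-05)), 128.8 kb (-0.99 (SE 0.30, adjusted p = 0.0247)) and 101.4 kb (-0.42 (SE 0.12, adjusted p = 0.0146)). It was likewise at Bcl2l1 40.6 kb (-0.55 (SE 0.17, adjusted p = 0.0291)) and Mcl1 5.7 kb (-0.29 (SE 0.08, adjusted p = 0.0115)). At Pmaip1 the peaks were 16.6 kb below the gene (-0.49 (SE 0.16, adjusted p = 0.0421)) and 19.6 kb (-0.45 (SE 0.13, adjusted p = 0.0153)) and 54.0 kb above its lower boundary (-1.51 (SE 0.49, adjusted p = 0.0369)). Bcl2 152.8 kb passed in 36 of 36 alternatives and Pmaip1 at 16.6 kb in 20 of 36. At Pmaip1 54.0 kb, a weak peak, aged Zfp219 Tterm read 8.62 and 3.26 and aged OTC Tterm 31.6 and 20.2.

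The Dusp5 effect was lower in aged than in young hosts at Bcl2l11 71.5 kb (-0.48 (SE 0.11, adjusted p = 0.00235)) and 100.8 kb (-0.96 (SE 0.22, adjusted p = 0.0024)), each in 36 of 36 alternatives, and at Bcl2l1 28.3 kb (-0.50 (SE 0.13, adjusted p = 0.0154)), in 34 of 36.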

How the results depend on the processing

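Over 247 called pairs of peak and comparison, 4155 alternative fits were run: 3675 kept direction and call, 480 kept direction and lost the call (401 of them with 1 library left out and 33 after quantile normalization), and none of the 4155 changed direction. Depth limits weak peaks, 4 of the 79 having a mean under 20. No scaling moved the median of all peaks by over 0.1.

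These counts of family peaks moved by over 1.5 times. Aged Ttran against Tterm went from 6 to 3 with library weights. Young Ttran against Tterm went from 4 to 10 with library weights, 7 with edgeR and TMM and 9 with the compared groups alone. Ttad against Tprog went from 1 to 2 without the weakest 25% of peaks, after quantile normalization and with edgeR and TMM, and to 3 with edgeR on the deposited scaling and with the compared groups alone. The difference of the state gap by age went from 2 to 1 with a pseudocount of 8. Aged Dusp5 went from 5 to 3 after quantile normalization and young Dusp5 from 2 to 4 with library weights. The cause was not tested. Counting peaks by gene overlap alone leaves 44 family peaks, and a limit of 50 kb leaves 73.

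With the replicate number as a block, Ttad against Tprog gave 2 calls and the state gap by age 1, and the other 12 counts stayed within 1.5 times. Over all peaks, same-numbered libraries did not deviate together (correlations -0.015 to 0.015 in aged and -0.018 to 0.017 in young hosts). Weak peaks were included, so these correlations cannot decide whether same-numbered libraries came from the same mice.

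With 1 library left out, a lone library being assumed to vary like the other groups, counts ran from 13 to 16 for aged and 17 to 30 for young Tprog against Tterm, 0 to 9 and 2 to 5 for aged and young Ttran against Tterm, 2 to 6 for Ttad against Tterm, 0 to 1 for Ttad against Tprog and 0 to 2 for the state gap by age. They ran from 34 to 38 for host age, 26 to 30 and 6 to 11 for Zfp219 in aged and young hosts, 4 to 8 and 2 to 4 for Dusp5, and 5 to 11 and 2 to 4 for the differences of the Zfp219 and Dusp5 effects by age. Fewer samples in the fit are part of these falls.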
